A study of Caenorhabditis elegans with 36 samples.

Results

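Teriflunomide at 250 µM was compared with its solvent, DMSO, in whole Caenorhabditis elegans by RNA sequencing. The comparison takes the 4 teriflunomide libraries and the 4 DMSO libraries of batch 2, which are 8 of the 36 libraries in the study. All genes that passed a filter on low counts were described, 15695 of the 27782 in the count table. Both groups were wild-type N2 hermaphrodite cultures at day 1 of adulthood, grown at 20 °C, and each sample was a pellet of about 3000 worms. Larvae of the first stage were placed on HT115 bacteria carrying the empty RNAi vector, on plates with IPTG, carbenicillin and 10 µM 5-fluorouracil, with or without the compound. 5-fluorouracil, a fluorinated pyrimidine that interferes with thymidylate synthesis, was thus present in the controls as well. Batch 2 also held 4 libraries of doxycycline at 50 µM, an antibiotic that also blocks mitochondrial translation. Batch 1 held the related DHODH perturbations used below for reference: brequinar at 500 µM, BAY2402234 at 500 µM, and dhod-1 RNAi, each in 4 libraries beside their own 4 DMSO libraries. It also held 4 libraries each of terbinafine and miglustat, which are not described here but entered the filter and fit of batch 1.

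Teriflunomide is the active metabolite of leflunomide and inhibits dihydroorotate dehydrogenase (DHODH). This flavoenzyme of the inner mitochondrial membrane oxidises dihydroorotate to orotate on the way to UMP and hands the electrons to ubiquinone, so it joins pyrimidine synthesis to the respiratory chain. The worm gene for it is dhod-1. Lipophilic foreign compounds are met in the worm intestine by cytochrome P450 enzymes that oxidise them, by glucuronosyltransferases and glutathione S-transferases that conjugate them, and by ABC transporters that export them.

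The labels call the 4 replicates of a condition biological and do not say how their cultures were separated, so p-values measure the spread between these samples. Total counts lay between 19578311 and 20404611 per library. The libraries were whole worms, so fewer cells of a type and less RNA per cell cannot be told apart. Markers of adult yolk and of the germ line were present in all 8. The 6 vitellogenin genes together gave 57370 to 70680 counts per 1000000 counts (CPM) with DMSO and 31540 to 40730 CPM with teriflunomide. Germ line and oocyte genes together gave 20170 to 27020 CPM with DMSO and 19580 to 22810 CPM with teriflunomide. DMSO replicate 1 stood apart from the other 3 controls. On the first principal component, which carried 79.4% of the variance over 10974 genes, it scored −1.54, against −65.0 to −88.6 for the other controls and 47.4 to 66.2 for teriflunomide. On the second component (12.5%) it scored 64, above the other 7 libraries. Summed sperm genes reached 3043 CPM in DMSO replicate 1, against 389 to 462 CPM in the other controls and 2438 to 3418 CPM with teriflunomide, so results that rest on that library are given with and without it.

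**Figure D1:**
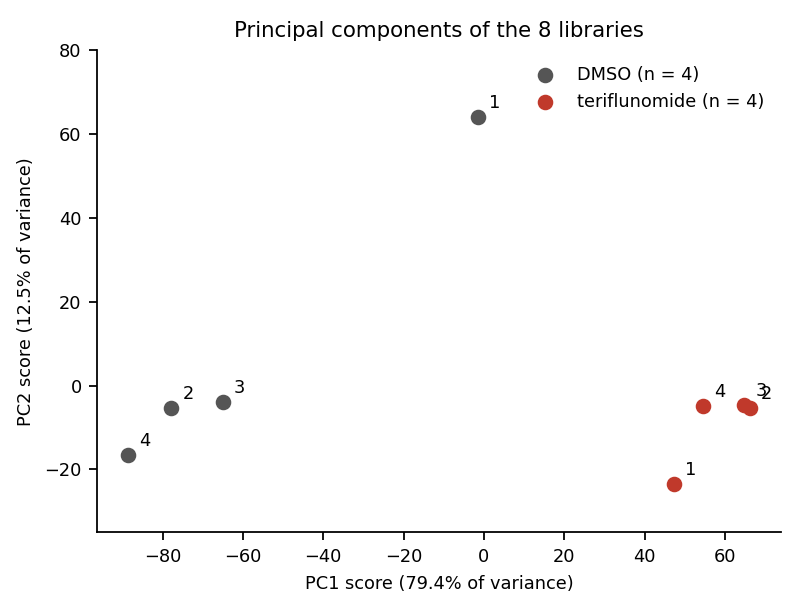
Scores of the 8 libraries on the first and second principal components of log2 CPM, with replicate numbers beside the points (grey, DMSO; red, teriflunomide). The first component parts the groups; DMSO replicate 1 lies near −1.54 on it and near 64 on the second.

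Teriflunomide changed a large share of the transcriptome. With edgeR's quasi-likelihood test and Benjamini-Hochberg adjustment, 6087 of the 15695 genes passed an adjusted p of 0.05, which is 38.8%. Of these, 2988 (19.0%) were higher and 3099 (19.7%) lower with teriflunomide, and 1469 and 1482 of them differed at least 2-fold. At least 16-fold differences were called for 95 higher and 90 lower genes. The libraries of the groups did not overlap for 5169 genes (32.9%). The median log2 fold change of all genes was −0.02. Without DMSO replicate 1, 4924 of 15985 genes were higher (30.8%) and 4224 lower (26.4%), and 5964 of the 6087 genes kept their call and direction. The rises and falls of each gene list below are read against these shares of all genes, 19.0% and 19.7%, or 30.8% and 26.4% without DMSO replicate 1.

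The gene of the inhibited enzyme itself did not pass the test. In CPM, dhod-1 stood at 87.9, 78.5, 93.8 and 73.3 with DMSO and at 89.7, 82.5, 87.9 and 92.0 with teriflunomide. The log2 fold change was 0.08 (SE 0.08, adjusted p = 0.413), and the exact two-sided permutation test over 4 against 4 libraries gave p = 0.343, where the smallest possible value is 0.029. The groups overlapped.

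Among the 20 genes of pyrimidine and dNTP metabolism, 3 rose, 2 fell and 15 were not called, with a median log2 fold change of −0.02, equal to that of all genes tested. The shares called, 15% and 10%, were below those of all genes. The pyr-1 gene, for the trifunctional enzyme of the first steps of UMP synthesis, differed by −0.12 on the log2 scale (adjusted p = 0.235). The umps-1 gene, which encodes UMP synthase, differed by −0.17 (adjusted p = 0.392), and neither was called. The same held for upp-1, a uridine phosphorylase of salvage (0.08, adjusted p = 0.372), and for rnr-1, the large subunit of ribonucleotide reductase (−0.17, adjusted p = 0.245).

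The 3 that rose act in deamination and breakdown. The cytidine deaminase gene cdd-1 went from 5.97, 5.16, 6.95 and 4.78 CPM to 18.2, 16.9, 16 and 17.2 CPM, a log2 fold change of 1.58 (SE 0.12, adjusted p = 3.52e-06). All 4 treated libraries were above all controls. The gene upb-1 for beta-ureidopropionase, the last step of uracil breakdown, rose by 1.06 (SE 0.11, adjusted p = 3.22e-05), and dhp-1, a dihydropyrimidinase gene, by 0.68 (SE 0.15, adjusted p = 0.00482). The CTP synthase gene ctps-1 fell by 0.24 on the log2 scale (SE 0.06, adjusted p = 0.00639). A further deaminase gene, cdd-2, fell by 0.26 (adjusted p = 0.0172), a call that was lost without teriflunomide replicate 2, 3 or 4 (adjusted p 0.0591 to 0.0824).

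The largest rises with teriflunomide were in genes of foreign compound metabolism. Of the 14 largest rises among genes with a symbol, 6 were cytochrome P450 genes, 3 were UDP-glucuronosyltransferase genes and 2 were glutathione S-transferase genes. The other members were cdr-1, gpa-6 and gba-2, described below.

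Of the 63 cytochrome P450 genes tested, out of 75 in the table, 31 rose and 10 fell, and the family's median log2 fold change was 0.75. That is 49.2% and 15.9%, against 19.0% and 19.7% of all genes. Its summed level went from between 545 and 628 CPM to between 3964 and 5172 CPM. Most of that sum came from few genes. The cyp-13A6 gene had 0.201, 0.434, 0.823 and 0.296 CPM with DMSO and 1527, 1423, 1634 and 1306 CPM with teriflunomide. It was near the limit of detection in every control, with 35 counts over the 4 libraries, and its log2 fold change was 11.70 (SE 0.29, adjusted p = 3.2e-10). The nearby gene cyp-13A4 had 0.251, 0.193, 0.772 and 0.0493 CPM in the controls and 947, 764, 883 and 673 CPM in the treated libraries (11.33, SE 0.39, adjusted p = 4.9e-09).

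These genes lie in a row on chromosome II of WBcel235 with cyp-13A5, cyp-13A7 and cyp-13A8, from cyp-13A4 at 9795756 to the end of cyp-13A8 at 9807569. The row did not rise evenly. The cyp-13A8 gene rose by 8.88 and cyp-13A7 by 8.06 on the log2 scale, while cyp-13A5, between cyp-13A4 and cyp-13A6, went from a mean of 18.9 CPM to 43.4 CPM (1.2, adjusted p = 0.0152). Beside the row, cyp-13A2 rose by 4.25 and cyp-13A3 by 1.65, and cyp-13A1 was not called (0.82, adjusted p = 0.156). The only tested cyp-13A gene with a negative value was cyp-13A10, which was not called (−0.84, adjusted p = 0.105).

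A pair of cyp-13A genes on chromosome III rose as well. The cyp-13A12 gene (13024547 to 13028017) had 0.451, 0.868, 0.669 and 0.394 CPM with DMSO and 989, 957, 1187 and 810 CPM with teriflunomide, a log2 fold change of 10.68 (SE 0.21, adjusted p = 4.55e-11). Its neighbour cyp-13A11 rose by 6.07 from a mean of 0.0612 CPM. Members of this family are close copies, and how the authors' counting divided reads that match several of them is not given in the sources used here, so the division between neighbours is uncertain. Outside the family, cyp-14A4 on the X chromosome rose by 6.89 (SE 0.33). In the other direction, cyp-35A2, a common reporter of xenobiotic exposure in the worm, fell from 19.2, 30.3, 26.9 and 26.3 CPM to 13, 9.56, 8.72 and 7.54 CPM (log2 fold change −1.41, SE 0.18, adjusted p = 0.000117).

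Conjugating enzymes moved mostly upward. Of 65 UDP-glucuronosyltransferase genes tested, 41 rose (63.1%) and 5 fell, with a median of 1.40, and the summed level of the family went from between 455 and 844 CPM to between 5123 and 6380 CPM. The ugt-34 gene was listed at 0.150, 0.338, 0 and 0.197 CPM in the controls and at 138, 123, 123 and 114 CPM with teriflunomide (9.43, SE 0.38, adjusted p = 1.82e-08). The ugt-19 gene went from 3.21, 2.31, 2.78 and 1.38 CPM to 861, 888, 1075 and 782 CPM (8.54, SE 0.26). With ugt-61 the replicates were closest: 6.52, 6.17, 6.53 and 5.91 CPM against 567, 571, 595 and 556 CPM, a log2 fold change of 6.51 with an SE of 0.06. Further rises were ugt-33 (6.98) and ugt-20 (4.87), the latter beside ugt-19 on chromosome IV.

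Glutathione S-transferases, which attach glutathione to electrophiles, gave 24 rises (54.5%) and 1 fall among 44 tested, with a median of 0.89. The gst-8 gene had 0.201, 0.241, 0.257 and 0.0493 CPM in the controls and 141, 146, 153 and 128 CPM with teriflunomide (9.52, SE 0.22, adjusted p = 1.48e-10). It lies on chromosome II directly beside gst-7, which rose by 2.18 (SE 0.11) from a control mean of 160 CPM. The gst-5 gene went from 14.1, 11.3, 13.1 and 9.36 CPM to 570, 506, 548 and 536 CPM (5.50, SE 0.12), and gst-33 rose by 6.59. The reporter gene gst-4, a target of the oxidative stress factor SKN-1, is less certain: its libraries overlapped, with 16.3, 4.24, 7.0 and 7.04 CPM against 10.8, 25.7, 18.1 and 18.3 CPM (1.08, SE 0.37, adjusted p = 0.0377), and the call was lost in 9 of the 14 alternative settings.

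**Figure D2:**
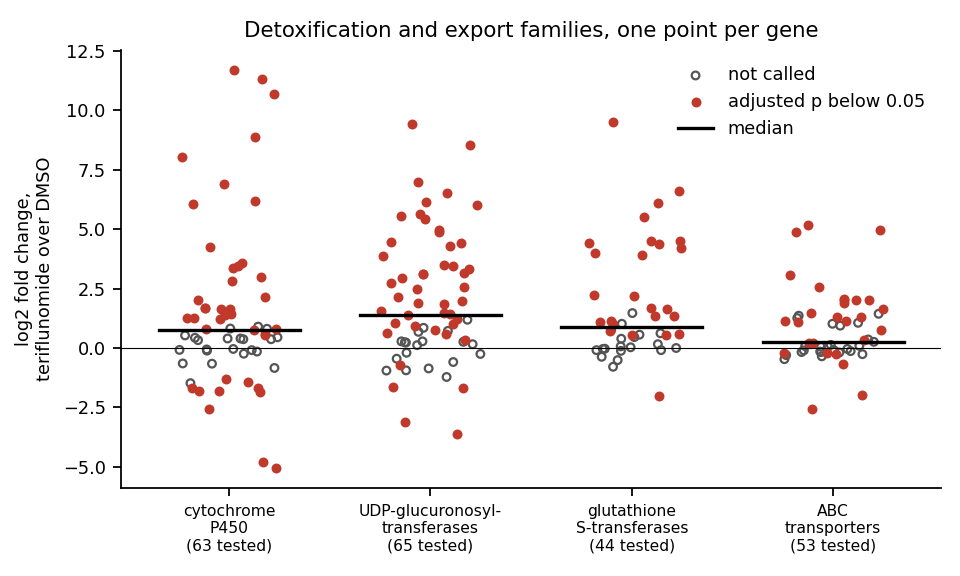
Log2 fold change of every tested member of 4 families (red, adjusted p below 0.05; open grey, not called; bar, median of the tested members). The 3 highest points are cyp-13A6, cyp-13A4 and cyp-13A12, between 10.68 and 11.70.

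Among ABC transporters, 21 of 53 rose (39.6%) and 6 fell, with a median of 0.26. The P-glycoprotein gene pgp-1, an exporter of the intestinal apical membrane, varied in the controls, with 30.9, 5.35, 22 and 1.43 CPM, and stood at 396, 462, 561 and 348 CPM with teriflunomide (4.89, SE 0.72, adjusted p = 0.000422). All treated libraries were still far above the highest control. Rises were also called for pgp-7 (5.18), mrp-3 (2.56), pgp-3 (2.04) and pgp-2 (2.01), a transporter of the gut granule membrane.

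Nuclear hormone receptors, ligand-regulated transcription factors that are greatly expanded in worms, gave 54 rises and 24 falls among 183 tested of 272, or 29.5% and 13.1%, with a median of 0.16. The leading rises were nhr-142, from 1.71, 1.74, 1.39 and 1.72 CPM to 29.4, 26.1, 30.0 and 20.4 CPM (4.01, SE 0.17), and nhr-210 (3.51, SE 0.28).

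The cadmium-responsive cdr genes encode glutathione S-transferase-like proteins. The cdr-1 gene rose from 1.05, 0.964, 1.44 and 1.23 CPM to 154, 178, 188 and 144 CPM (7.14, SE 0.19, adjusted p = 3.2e-10), cdr-4 by 5.83 and cdr-2 by 3.87. Of the 14 tested genes of the metal and osmotic list to which they belong, 5 rose and 5 fell. The G protein alpha subunit gene gpa-6, from 0.451, 0.145, 0.154 and 0.0493 CPM to 24, 22.8, 25.9 and 15.5 CPM, rose by 6.75 (SE 0.45).

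Of the genes known by sequence name alone, Y73C8C.10 had 0 counts in all 4 controls and 10.0, 12.4, 16.3 and 11.8 CPM with teriflunomide. Against a floor of 3 counts over the control group, its summed counts were at least 338-fold higher, a bound that covers counting error only. B0205.14 had 2 counts over the control libraries, both in replicate 1, and 17.2, 19.7, 25.3 and 15.1 CPM with teriflunomide. The ratio of the groups was 778, with a 95% counting interval of 215 to 6430 that covers counting error only. R05D8.9 rose by 7.59 (SE 0.56).

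**Figure D3:**
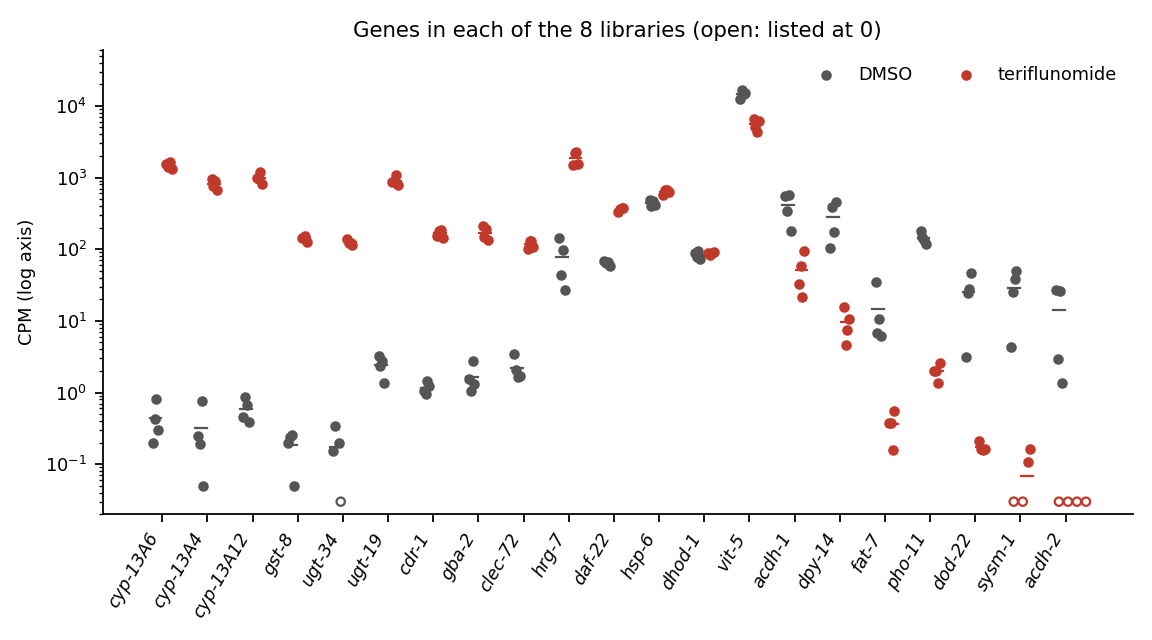
CPM of 21 genes in each library on a logarithmic axis (grey, DMSO; red, teriflunomide; short line, group mean; open symbols, libraries listed at 0, drawn at 0.03). The cyp-13A6 gene moves from below 1 CPM to between 1306 and 1634 CPM, and dhod-1 overlaps between the groups.

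Genes of mitochondrial stress and energy metabolism rose by small amounts. In the list of the mitochondrial unfolded protein response, the programme that restores protein folding in mitochondria, 13 of 18 genes rose (72.2%, against 19.0% of all genes) and none fell, with a median of 0.27. The chaperone gene hsp-6, its usual reporter, stood at 487, 407, 464 and 414 CPM with DMSO and at 580, 660, 662 and 621 CPM with teriflunomide (0.51, SE 0.07, adjusted p = 0.000285). Its groups did not overlap, and the value was 0.56 without DMSO replicate 1. The partner chaperone hsp-60 overlapped between groups, with 343, 238, 296 and 221 CPM against 298, 376, 374 and 386 CPM (0.38, SE 0.14, adjusted p = 0.0458), and its call was lost in 11 of the 14 alternative settings.

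The import channel gene timm-23 rose by 0.39 (SE 0.06) and atfs-1, which encodes the transcription factor of the response, by 0.29 (SE 0.08, adjusted p = 0.0136). The mitochondrial protease gene lonp-1 rose by 0.29 and the chaperone gene dnj-10 by 0.33. The list depends on the scaling: with DESeq2's size factors, which shift the median of all genes to −0.09, 3 of the 18 genes rose, and atfs-1, lonp-1 and dnj-10 were no longer called.

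Nuclear genes of oxidative phosphorylation gave 34 rises and 2 falls among 39, with a median of 0.39, and 22 rises with DESeq2's size factors. Subunits of several complexes were among them. The complex II gene sdha-1 went from 139, 93.6, 123 and 92.7 CPM to 208, 232, 233 and 236 CPM (1.02, SE 0.12), the complex I gene gas-1 rose by 0.99 (SE 0.13) and nuo-4, also of complex I, by 0.35 (SE 0.04). The complex III core gene ucr-2.1 rose by 0.81 (SE 0.08). DHODH delivers its electrons to the same quinone pool that complexes I and II feed and complex III drains, but its part in these rises was not tested. Of the same 39 genes, 0 rose and 3 fell with brequinar, where 5.03% of all genes rose and 10.6% fell. With BAY2402234 3 rose and 25 fell (23.2% and 23.6% of all genes). With dhod-1 RNAi 3 rose and 32 fell (31.3% and 30.1%), and with doxycycline 35 rose and 4 fell (44.8% and 40.2%). Each is over the DMSO of its own batch.

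Of 10 tested protein-coding genes of the mitochondrial genome, 8 rose and none fell (median 0.55). ND1, a complex I subunit, went from 223, 146, 151 and 175 CPM to 225, 268, 224 and 260 CPM (0.49, SE 0.15, adjusted p = 0.0202), with the highest control just below the lowest treated library. The call was lost without teriflunomide replicate 2 or DMSO replicate 2 or 3. ND6 rose by 0.79 (SE 0.22). The count of called genes in this list was between 2 and 5 in 8 of the 14 alternative settings. Without DMSO replicate 1 all 10 rose, with a median of 0.74. In contrast, 7 of 69 mitochondrial ribosomal protein genes rose (10.1%, median 0.04), and with DESeq2's size factors none did, while 3 rose without DMSO replicate 2 and 4 without DMSO replicate 4 or teriflunomide replicate 2. Of 82 cytosolic ribosomal protein genes 2 rose and 1 fell.

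In the tricarboxylic acid and glyoxylate cycle 16 of 21 genes rose and none fell (median 0.46). The citrate synthase gene cts-1 went from 824, 632, 773 and 696 CPM to 1551, 1438, 1495 and 1549 CPM (1.04, SE 0.09, adjusted p = 5.28e-06), and ogdh-1, the E1 subunit of 2-oxoglutarate dehydrogenase, rose by 0.52. In glycolysis and gluconeogenesis 18 of 24 rose and none fell, and 11 rose with DESeq2's size factors. The muscle-type aldolase gene aldo-1 rose by 1.22 (SE 0.24) and the phosphoenolpyruvate carboxykinase gene pck-2 by 0.65 (SE 0.07).

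Other stress programmes were partly raised. Of 16 cytosolic heat shock genes, 8 rose and none fell. The small heat shock gene hsp-16.2 went from 25.6, 11.3, 12.9 and 7.73 CPM to 64.3, 59.6, 88.6 and 44.4 CPM (2.16, SE 0.33, adjusted p = 0.000486), without overlap, hsp-16.48 rose by 1.68 and hsp-17 by 1.55. The hsp-16 genes are close copies, and reads may be divided among them. Of 20 genes of endoplasmic reticulum stress, 13 rose and 2 fell (8 rose with DESeq2's size factors). The BiP gene hsp-4 went from 530, 400, 753 and 375 CPM to 1057, 946, 1140 and 852 CPM (0.96, SE 0.19, adjusted p = 0.00246). Its constitutive relative hsp-3 rose by 0.63, the calreticulin gene crt-1 by 0.49, dnj-7 by 0.95 and the choline kinase gene ckb-2 by 1.88, whereas the thioredoxin-like chaperone gene dnj-27 fell by 1.14 on the log2 scale.

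Of 23 tested SKN-1 targets and antioxidant enzymes 11 rose and none fell, and 7 rose with DESeq2's size factors. The superoxide dismutase gene sod-1 rose by 0.65 (SE 0.07). The inducible mitochondrial superoxide dismutase gene sod-3 was low in every library, at most 0.702 CPM, and not called (0.44, SE 0.74, adjusted p = 0.652). In the list of hypoxia and hydrogen sulfide response genes 5 of 12 rose and 2 fell, and 1 fell in 11 of the 14 alternative settings. The member with the smallest p was cysl-2, a cysteine synthase-like gene (1.06, SE 0.12), and semo-1, which encodes a methanethiol oxidase, rose more (1.59, SE 0.22). Short-chain dehydrogenase genes gave 12 rises and 5 falls among 30 (40% and 16.7%). The DAF-16 targets, with 3 rises and 4 falls among 17 tested (17.6% and 23.5%), were near the shares of all genes with all 4 controls. Without DMSO replicate 1 there were 4 rises and 8 falls among them (47.1% lower, against 26.4% of all genes). Of 33 proteasome genes 7 fell and none rose, with a median of −0.13. The lid subunit gene rpn-3 fell by 0.25 on the log2 scale. The 21.2% that fell is near the 19.7% of all genes. The count of falls was 12 (36.4%, against 26.4% of all genes) without DMSO replicate 1 and 1 with DESeq2's size factors or without teriflunomide replicate 3, and 2 or 3 without teriflunomide replicate 2 or 4.

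Genes of fatty acid metabolism moved in both directions. Of 44 genes of fatty acid oxidation, 20 rose and 8 fell, with a median of 0.36. The 4 members with the smallest p encode steps of peroxisomal beta-oxidation. These enzymes shorten very long chains and, in the worm, make ascaroside pheromones. The thiolase gene daf-22 went from 69.5, 63.9, 67.0 and 59.0 CPM to 329, 359, 370 and 370 CPM (2.46, SE 0.07, adjusted p = 1.12e-09). The preceding enzymes of the same cycle rose as well: acox-3, an acyl-CoA oxidase gene, by 1.97 (SE 0.12), maoc-1, the enoyl-CoA hydratase gene, by 1.60 (SE 0.08), and dhs-28, the hydroxyacyl-CoA dehydrogenase gene, by 1.82 (SE 0.06). The related gene ech-8 was next by p and rose by 1.62.

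Acyl-CoA dehydrogenase genes were among the falls. The acdh-2 gene had 27.1, 2.94, 26.1 and 1.38 CPM with DMSO and no count in any teriflunomide library. Against a floor of 3 counts over the treated group, its counts summed over each group were at least 352-fold lower. That bound covers counting error only and not the spread between libraries. The controls themselves spanned a wide range, with replicates 1 and 3 high. The gene acdh-1, which acts on short and branched chains and is known to respond to vitamin B12, went from 561, 337, 564 and 177 CPM to 32.4, 57.9, 21.4 and 95.9 CPM (−2.98, SE 0.48, adjusted p = 0.000762). Of the 12 genes of the propionate and vitamin B12 list, 6 rose and acdh-1 fell. The count of rises was 2 with DESeq2's size factors and 3 with DESeq2, with the replicate block or without teriflunomide replicate 2 or 4 or DMSO replicate 4. The count of falls was 3 with DESeq2 or without DMSO replicate 2 or 4. Both subunits of propionyl-CoA carboxylase rose, pcca-1 by 0.60 and pccb-1 by 0.53.

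Among 24 genes of lipid synthesis 13 rose and 3 fell. Delta-9 desaturases make oleic and palmitoleic acid, and the genes fat-7 and fat-5 of this class were in the falls. The fat-7 gene went from 34.9, 6.80, 10.5 and 6.06 CPM to 0.372, 0.378, 0.159 and 0.546 CPM (−5.30, SE 0.66, adjusted p = 0.000124). DMSO replicate 1 was the highest control, and without it the log2 fold change was −4.40. The fat-5 gene showed the same layout, with 22.8, 4.20, 5.66 and 4.53 CPM against 1.01, 1.24, 1.16 and 1.15 CPM (−3.02, and −2.06 without that library). The later desaturases fat-1 and fat-2 rose by 0.51 and 0.63, and pod-2, the acetyl-CoA carboxylase gene, by 0.55.

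In the one-carbon and phosphatidylcholine list 8 of 21 rose (38.1%) and 2 fell, and 5 rose without teriflunomide replicate 2 or DMSO replicate 2 or 4. The pcyt-1 gene, whose enzyme uses CTP to activate phosphocholine, went from 47.9, 29.9, 35.9 and 33.7 CPM to 109, 132, 128 and 113 CPM (1.71, SE 0.13, adjusted p = 3.26e-06). The glycine decarboxylase gene gldc-1 rose by 1.30, or 1.79 without DMSO replicate 1. Sphingolipid genes gave 13 rises and 2 falls among 26. They included both subunits of serine palmitoyltransferase, the first step, sptl-1 (1.04, SE 0.08) and sptl-2 (2.97, SE 0.20). The glucocerebrosidase gene gba-2 went from 1.55, 1.06, 2.73 and 1.33 CPM to 212, 148, 189 and 136 CPM (6.68, SE 0.29, adjusted p = 3.09e-08). The sphingomyelin synthase-like genes went apart: sms-5 rose by 3.17 and sms-2 fell by 1.22 on the log2 scale.

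Of 13 genes of tyrosine and tryptophan breakdown, 8 rose and none fell. The count rests on few libraries: all 13 rose without DMSO replicate 1, 3 without teriflunomide replicate 2, 4 without DMSO replicate 2 or 4, and 5 without teriflunomide replicate 3 or 4 or DMSO replicate 3. It was 4 with the 8 libraries alone and 5 with DESeq2's size factors or the replicate block. The hpd-1 gene for 4-hydroxyphenylpyruvate dioxygenase rose by 0.99 (SE 0.20). In the list of mevalonate and sterol hormone genes, 4 of 14 rose and 2 fell. The Rieske oxygenase gene daf-36, which starts dafachronic acid synthesis, went from 15, 2.22, 6.33 and 2.27 CPM to 29.8, 43.0, 37.9 and 36.8 CPM (2.52, SE 0.51, adjusted p = 0.00271), or 3.36 without DMSO replicate 1.

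Heme and iron genes were sharply altered. Worms cannot make heme and take it up through the intestine, and the hrg genes respond to low heme. Of 11 tested genes of this list 8 rose and 2 fell, with a median of 1.40. The intestinal aspartic protease gene hrg-7 went from 142, 43.9, 97.2 and 27.1 CPM to 1495, 2223, 2305 and 1555 CPM (4.61, SE 0.48, adjusted p = 4.79e-05). The heme importer gene hrg-1 rose by 2.09 (SE 0.22), hrg-2, whose product acts in the hypodermis, by 4.80, hrg-3, which encodes a secreted heme chaperone, by 3.92, and the intestinal heme exporter gene mrp-5 by 1.12. The ferritin gene ftn-1, which is known to be turned down when iron is short, went the other way, from 3.81, 1.35, 0.977 and 2.96 CPM to 0.106, 0, 0.0529 and 0.109 CPM (−4.96, SE 0.63, adjusted p = 0.000126).

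Innate immune effector genes were more often lower. Of 38 tested, 19 fell and 7 rose, with a median of −0.93, and without DMSO replicate 1 there were 21 falls and 8 rises. The summed level of the list overlapped between the groups, at 2228 to 3496 CPM with DMSO and 3092 to 3455 CPM with teriflunomide. The sysm-1 gene had 4.31, 25.2, 38.1 and 49 CPM with DMSO and 0, 0, 0.106 and 0.164 CPM with teriflunomide (−8.63, SE 0.93, adjusted p = 5.5e-05). The dod-22 gene, of the CUB-like class, went from 3.11, 24.1, 28.1 and 46.4 CPM to 0.212, 0.162, 0.159 and 0.164 CPM (−7.14, SE 0.81). In both, DMSO replicate 1 was the lowest control and still above every treated library.

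The lysozyme gene ilys-5 went from 374, 518, 638 and 353 CPM to 44, 33.2, 24.1 and 48.9 CPM (−3.65, SE 0.27). The CUB-like genes irg-4 and dod-24 fell by 4.38 and by 3.54, and the thaumatin gene thn-2 fell by 2.74, all on the log2 scale. Against these, the saposin-like gene spp-3 rose by 1.15 (SE 0.12). The large family of C-type lectins gave 36 rises and 27 falls among 136 tested of 238, and these shares, 26.5% and 19.9%, are near those of all genes. Without DMSO replicate 1 there were 52 rises and 38 falls among 142 tested (36.6% and 26.8%, against 30.8% and 26.4%). The clec-72 gene of this family rose from 3.46, 2.07, 1.65 and 1.72 CPM to 101, 130, 132 and 108 CPM (5.72, SE 0.22), and clec-50 by 1.16. Falls of 5.44 for clec-47 and 4.35 for clec-218 were on the log2 scale. The pals genes of the intracellular pathogen response gave 11 rises and 2 falls among 26 tested (42.3% and 7.69%).

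The yolk protein genes, made in the adult intestine, were lower. Of the 6 vitellogenin genes 4 fell and none rose. The vit-5 gene went from 12560, 16480, 14830 and 15030 CPM to 6588, 5047, 4368 and 6229 CPM (−1.41, SE 0.17, adjusted p = 8.05e-05), vit-3 fell by 1.66, vit-6 by 0.66 and vit-2 by 0.61 on the log2 scale. The genes are close copies, so the division of reads among vit-3 and its nearest relatives is uncertain. Other intestinal genes moved the other way, so that yolk genes and intestinal markers parted: of the 26 intestine markers 15 rose and 2 fell. The esterase gene ges-1 went from 22.5, 40.9, 24.9 and 46.6 CPM to 155, 162, 155 and 139 CPM (2.18, SE 0.20), asp-3, a lysosomal protease gene, rose by 1.59 and the proton pump gene vha-6 by 1.26. The acid phosphatase gene pho-11 fell from 178, 148, 134 and 118 CPM to 1.97, 2.00, 1.38 and 2.57 CPM (−6.19, SE 0.19, adjusted p = 1.48e-09).

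Of 27 autophagy and lysosome genes 4 rose (14.8%) and 12 fell (44.4%), with a median of −0.25. The count of falls was 6 without DMSO replicate 2 or 4 and 7 without teriflunomide replicate 2, 3 or 4. Among the falls were dct-1, which encodes a receptor for the removal of mitochondria by autophagy (−1.13, SE 0.21), and lgg-2, which encodes an LC3-like protein of the autophagosome (−0.72, SE 0.16). The lysosomal membrane gene lmp-2 rose by 1.92 and the lipase gene lipl-5 by 0.92.

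Molting and early embryo genes were mostly lower. The list of molting and apical matrix genes had 54 falls and 11 rises among 101 tested, with a median of −1.27, and 54 falls were also counted without DMSO replicate 1. The fibrillin-like gene fbn-1 went from 36.5, 68.4, 40.9 and 81.6 CPM to 7.65, 5.78, 6.5 and 6.89 CPM (−3.08, SE 0.25, adjusted p = 5.42e-06). The epidermal receptor gene nhr-25, which is needed for molting, fell by 3.08 on the log2 scale. Among the early zygotic embryo genes, which are switched on in embryos inside the adult, 13 of 21 tested fell and 1 rose, with a median of −1.43. The vet-6 gene went from 7.97, 19.4, 15.3 and 14.8 CPM to 2.87, 1.46, 1.32 and 2.29 CPM (−2.85, SE 0.31) and pes-10 fell by 3.01.

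Single collagen genes were among the largest falls, though collagens as a group were not mostly lower, as given below. The dpy-14 gene had 104, 383, 175 and 452 CPM with DMSO and 15.5, 4.64, 7.40 and 10.5 CPM with teriflunomide (−4.87, SE 0.52, adjusted p = 5.39e-05). Its controls varied, with replicates 2 and 4 high, but did not overlap the treated libraries. Falls were also called for dpy-17 (−4.59), col-165 (−6.22), col-121 (−5.24) and col-74 (−5.16), for the cuticlin gene cut-3 (−6.11), and for hch-1 (−4.91), a secreted protease needed for hatching. Summed, the early zygotic embryo genes gave 246 to 327 CPM with DMSO and 186 to 206 CPM with teriflunomide, and the part of embryo content in the falls of molting genes and of these collagen genes was not tested.

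The cuticle collagens as a whole gave 18 rises and 19 falls among 141 tested (12.8% and 13.5%, below the shares of all genes) and a median of −0.19. Here DMSO replicate 1 decides the count: without it 61 rose and 18 fell, and the median was 1.16. Between 9 and 11 rose without teriflunomide replicate 2 or 3 or DMSO replicate 2. The summed collagen level was 19170 CPM in that library, 6377 to 12500 CPM in the other controls and 18050 to 25480 CPM with teriflunomide. In the sperm list 16 of 67 rose and 1 fell, and the 23.9% that rose is near the 19.0% of all genes. The count of rises was 63 without DMSO replicate 1 (median 2.90 against 1.51), 31 with the replicate block and 33 with DESeq2. It was 3 with the 8 libraries alone or without teriflunomide replicate 2, 3 or 4 or DMSO replicate 2 or 3, 4 without DMSO replicate 4, and 5 with no filter.

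Few germ line genes were called. Of 49 germ line and oocyte genes none rose and 4 fell (8.16%; 1 without teriflunomide replicate 3, and 2 without teriflunomide replicate 2 or DMSO replicate 2 or 3), with a median of −0.08, and the summed level was 20170 to 27020 CPM with DMSO and 19580 to 22810 CPM with teriflunomide. The translational regulator gene nos-3 fell by 0.27 on the log2 scale (SE 0.05). Of 57 tested genes of DNA replication, repair and cell division 7 fell (12%) and none rose, among them the replication origin genes orc-1 (−0.33) and mcm-5 (−0.31). The count of falls was 19 without DMSO replicate 1, 0 without teriflunomide replicate 3, 1 with the replicate block or without teriflunomide replicate 2 or 4, and 2 to 4 with DESeq2, with its size factors, with no filter or without DMSO replicate 2, 3 or 4. The mcm-5 gene was not called in 7 of the 14 alternative settings.

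Muscle markers were higher: 24 of 34 rose and 1 fell, with a median of 0.78. The body wall myosin gene unc-54 went from 2709, 1682, 2057 and 1563 CPM to 3699, 4335, 4283 and 4152 CPM (1.04, SE 0.15, adjusted p = 0.000324), the twitchin gene unc-22 rose by 1.30 and the myosin light chain gene mlc-2 by 0.78. Of 42 neuron markers 10 rose and 11 fell, and the shares of 23.8% and 26.2% are near those of all genes. The count of rises was 18 (42.9%, against 30.8% of all genes) without DMSO replicate 1 and 5 or 6 without teriflunomide replicate 2 or 3 or DMSO replicate 2 or 3. The synaptic gene unc-18 rose by 1.44, while the transcription factor genes unc-3 and unc-86, which specify neurons during development, fell by 2.71 and by 2.33 on the log2 scale. Neuropeptide and insulin genes gave 48 rises and 5 falls among 126 tested (38.1% and 3.97%), with nlp-40 at 1.09. There were 27 rises with the 8 libraries alone. Without DMSO replicate 1 there were 69 rises and 7 falls (54.8% higher, against 30.8% of all genes). Transthyretin-related genes gave 15 rises and 7 falls among 54 (27.8% and 13%). Without DMSO replicate 1 there were 30 rises and 10 falls among 55 tested (54.5% higher, against 30.8% of all genes). The count of rises was 8 without teriflunomide replicate 2 or DMSO replicate 2 and 9 with DESeq2, which also gave 11 falls.

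**Figure D4:**
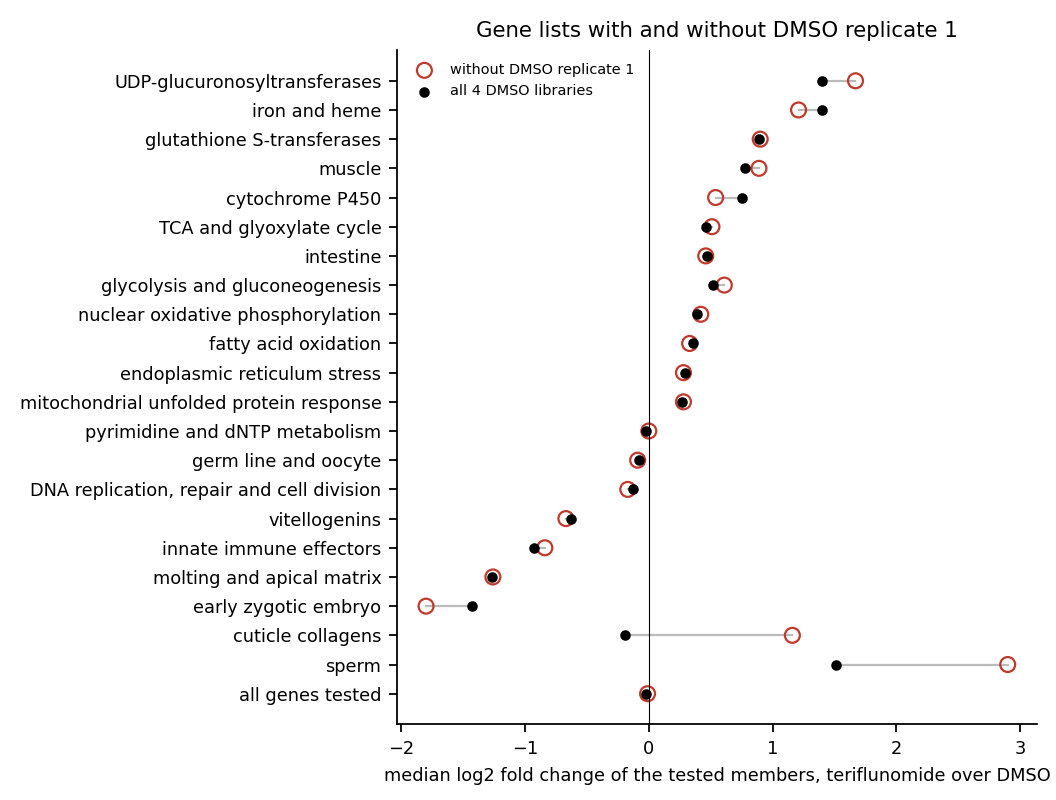
Median log2 fold change of the tested members of 21 gene lists and of all genes, with all 4 DMSO libraries (black) and without DMSO replicate 1 (open red). Most medians barely move; cuticle collagens go from −0.19 to 1.16 and sperm genes from 1.51 to 2.90.

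Teriflunomide and doxycycline were then compared directly within batch 2. They differed in 11641 of 15695 genes (74.2%), of which 5941 were higher and 5700 lower with teriflunomide. Germ line RNA differed widely between these groups: germ line and oocyte genes summed to 1749 to 2420 CPM with doxycycline, against 19580 to 22810 CPM with teriflunomide, and the part of this in the count was not tested. Over the same DMSO libraries doxycycline raised 47 of the 65 UDP-glucuronosyltransferase genes and lowered 8 (median 1.45), and raised 29 of 44 glutathione S-transferase genes (median 1.25), where 44.8% of all genes were higher and 40.2% lower. Single detoxification genes were far above doxycycline. The log2 fold change of teriflunomide over doxycycline was 11.53 (SE 0.40) for cyp-13A4, 11.50 for ugt-34, 10.85 for cyp-13A6, 9.29 for gst-8 and 8.34 for cyp-13A7. For ugt-34 a ratio this large rests on few counts with doxycycline, so its size is uncertain. Lower than with doxycycline were sysm-1 (−8.74), oac-20 (−8.50), an acyltransferase gene, dod-24 (−8.35) and dod-22 (−8.22). The acdh-2 gene averaged 35.3 CPM with doxycycline and had no count with teriflunomide. For hsp-6 the difference did not pass the test (−0.16, adjusted p = 0.062). Energy genes were lower with teriflunomide than with doxycycline in sdha-1 (−0.67), gas-1 (−0.83) and ucr-2.1 (−0.80). The part of the germ line difference in these single-gene values was not tested either.

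The teriflunomide calls were then set beside the other DHODH perturbations. These were run in batch 1 against their own DMSO, at other doses, so values are set side by side without a test. Among the 2769 teriflunomide rises tested in both batches, 4.37% were higher with brequinar, where 5.03% of all genes tested were higher, and 24.6% were lower, where 10.6% of all were lower. Of the 2934 falls, 4.40% were lower and 10.8% higher with brequinar. With BAY2402234, which raised 23.2% and lowered 23.6% of all genes, 29.6% of the teriflunomide rises were higher and 15% lower, and 19.1% of the falls were lower and 31.8% higher. With dhod-1 RNAi, which raised 31.3% and lowered 30.1% of all genes, 29.1% of the rises were higher and 25.7% lower, and 15.6% of the falls were lower and 53.3% higher. The shares of all genes here are over the 15142 genes tested in batch 1. Of the 14435 genes tested in both batches, 732 were higher and 1598 lower with brequinar. The counts were 3226 and 3567 with BAY2402234 and 4229 and 4552 with dhod-1 RNAi. The shares of falls lower with BAY2402234 and with dhod-1 RNAi moved between 7.03% and 20.5% over the alternative settings. In the RNAi libraries dhod-1 itself fell by 0.28 on the log2 scale (adjusted p = 0.00482), while it differed by 0.11 with brequinar (adjusted p = 0.341) and fell by 0.44 with BAY2402234.

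Of the 14 largest teriflunomide rises, 10 were tested in batch 1, and 7 of these were called higher with brequinar, 5 with BAY2402234 and 6 with dhod-1 RNAi. Of all genes tested in batch 1, 5.03%, 23.2% and 31.3% were higher in the same order. The counts cannot measure overlap, since the filter ran over all batch 1 libraries. A gene near the floor in the controls passes it only through a group where it is high. The cyp-13A6 gene rose by 5.65 with brequinar (SE 0.80), by 3.31 with BAY2402234 and by 3.47 with dhod-1 RNAi, against 11.70 with teriflunomide. The cyp-13A7 gene rose by 5.48, 4.1 and 4.74 and ugt-34 by 1.65, 1.85 and 2.02 in the same order. Called with brequinar but not with BAY2402234 were cyp-13A12 (4.89), gba-2 (4.74), pgp-1 (4.35), cdr-1 (2.58) and ugt-33 (2.49). With dhod-1 RNAi pgp-1 (3.35), cyp-13A12 (1.81) and ugt-33 (1.19) were called as well, and no difference between the compounds was tested. The cyp-13A4 gene was called with none of the 3 (1.23, −1.29 and 0.05). Family counts differed in size: of the UDP-glucuronosyltransferase genes 12 of 61 rose and 12 fell with brequinar, 20 rose and 10 fell with BAY2402234, and 34 rose and 7 fell with dhod-1 RNAi.

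Single genes took the opposite sign. The collagen gene dpy-14 rose by 4.96 and the hatching gene hch-1 by 5.93 with dhod-1 RNAi. The collagens as a list did not: 20 of 130 rose and 63 fell there, where 31.3% of all genes rose and 30.1% fell. With brequinar 7 rose and 20 fell (5.03% and 10.6% of all genes), and with BAY2402234 9 rose and 17 fell (23.2% and 23.6%). The hsp-6 gene, which rose with teriflunomide, fell by 0.58 with BAY2402234 and by 0.41 with dhod-1 RNAi on the log2 scale. The daf-22 gene kept its sign, with rises of 0.48 with brequinar and 0.62 with dhod-1 RNAi against 2.46 with teriflunomide, and was not called with BAY2402234 (0.05, adjusted p = 0.825).

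**Figure D5:**
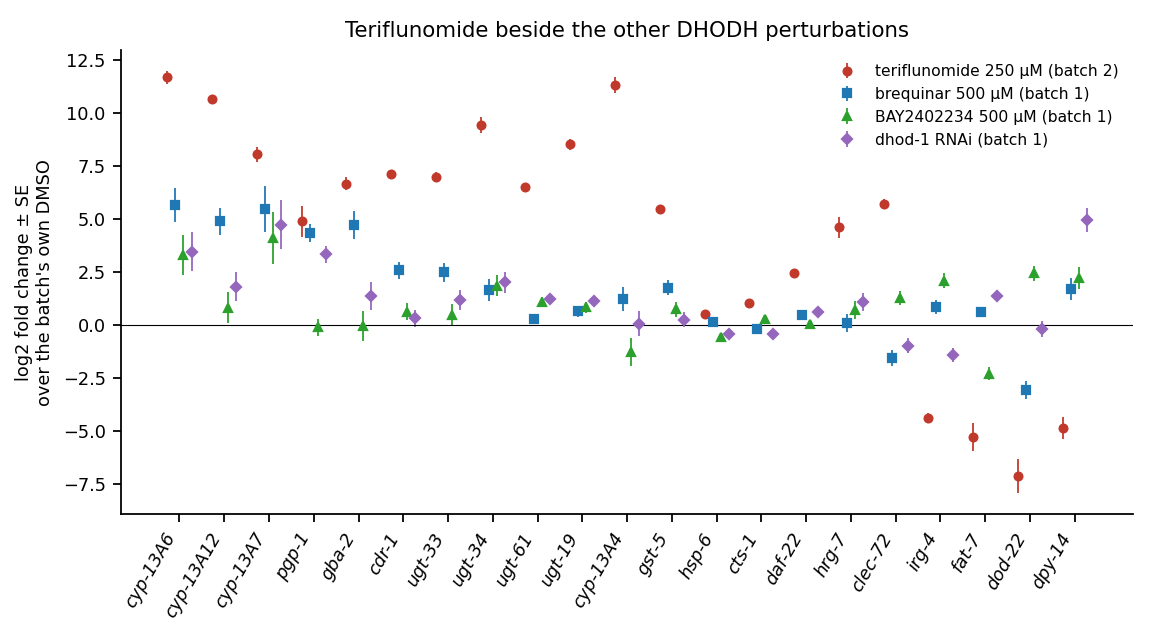
Log2 fold change ± SE of 21 genes with teriflunomide (red circles) and with brequinar, BAY2402234 and dhod-1 RNAi, each over the DMSO of its own batch. The cyp-13A6 and cyp-13A7 genes are above 0 in all 4, and dpy-14 is at −4.87 with teriflunomide and 4.96 with dhod-1 RNAi.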

How the data were processed

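Total RNA of whole worms was sequenced on the BGISEQ-500, per the labels. The deposited values are raw counts per gene. Per the submitters' processing notes, FastQC, STAR 2.7.3a, DESeq2 1.40.2 and the build WBcel235 were used; the counting program and its strand setting are not given in the sources used here, so a gene and an overlapping or antisense partner cannot be told apart. No sequence is printed. Of the 27782 gene identifiers, 25676 have a name and 27563 a position in the reference annotation.

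The counts were fitted with edgeR 4.0.16 (R 4.3.3; limma 3.58.1): filterByExpr with a minimum count of 10, TMM scaling and the robust quasi-likelihood F test over all 12 batch 2 libraries, which share 1 estimate of the spread, with Benjamini-Hochberg adjustment over all genes and a threshold of 0.05. Batch 1 was fitted over its 24 libraries, those of terbinafine and miglustat included. Levels are TMM-scaled CPM, and the SE is the log2 fold change divided by the square root of F. The fit was checked on simulated counts with known changes. No pair of libraries agreed within sampling noise (lowest chi-square per degree of freedom 3.73). Replicate numbers did not pair the samples (see the closing part on processing).

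The 45 gene lists, the members and the comparisons were chosen with earlier results of these data known. They are described by counts and medians, to be read against the shares and the median of all genes, with no test of their own. The mitochondrial genome list was redefined by position after the files were seen, and 16 list entries matched no symbol. Genes were named by a rule: among called genes without overlap and averaging 5 CPM or more in a group, the 14 largest changes each way with a symbol and 3 each way known by sequence name; a panel of stress and pyrimidine genes; the members of each list with the smallest p, at most 5; and 5 genes each way against doxycycline. The other cyp-13A genes were named after their values were seen, to complete the family. Alternatives tried were DESeq2 1.42.0 and its size factors, no filter on low counts, a stricter filter (5 CPM on average in some group), a replicate block, the 8 libraries alone and leaving out each library.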

Additional observations from a re-analysis of the deposited data

Results flagged for a closer look

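Over 394 sets of 4 libraries (the named genes, the list sums and the component scores in each group), 21 held 1 library whose gap to the nearest other exceeded, as a share of the group's range, Dixon's 95% critical value. Chance flags about 1 in 20 such sets. Of the 21, 10 were DMSO replicate 1.

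That library was high for the delta-9 desaturase genes fat-7 at 34.85 CPM (others 6.06 to 10.5) and fat-5 at 22.81 CPM (others 4.20 to 5.66). It was high for fat-1 at 433.3 CPM (others 323 to 340) and for gldc-1 at 130.6 CPM (others 45.5 to 55.4). It was also high for hsp-16.48 at 105.8 CPM (others 47.1 to 54), and it alone among the controls held B0205.14, at 0.1003 CPM. Its summed levels stood apart for sperm genes (3043 CPM, others 389 to 462), transthyretin-related genes (1625 CPM, others 1344 to 1391) and genes of the mitochondrial genome (7078 CPM, others 4279 to 4660), as did its score of 63.97 on the second component.

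In the other controls, pgp-7 was high in replicate 2 at 0.4339 CPM (others 0.150 to 0.197), nhr-142 low in replicate 3 at 1.389 CPM (others 1.71 to 1.74) and hsp-17 high in replicate 3 at 82.82 CPM (others 31.2 to 39.0).

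Teriflunomide replicate 1 was low for hsp-60 at 297.6 CPM (others 374 to 386), for sdha-1 at 207.5 CPM (others 232 to 236) and for the summed C-type lectins at 6364 CPM (others 6735 to 6784), scored −23.53 on the second component (others −5.29 to −4.68), and was high for dod-22 at 0.2125 CPM (others 0.159 to 0.164) and for lgg-2 at 139.7 CPM (others 118.5 to 119.5). Teriflunomide replicate 2 was high for nuo-4 at 306.1 CPM (others 293 to 295) and for unc-3 at 0.918 CPM (others 0.601 to 0.638).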

How the results depend on the processing

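Of the 150 genes named, 141 kept their direction and their side of the threshold against DMSO under every alternative that tested them, 9 lost a call under at least 1 of the 14 and none reversed. The stricter filter did not test pes-10, sod-3 and unc-3, nor did the 8 libraries alone test sod-3. DESeq2 called 5814 genes, its size factors in edgeR 5544, the fit without a filter 5754, the stricter filter 4611 and the 8 libraries alone 4754, against 6087. Leaving out each library in turn gave 4596 to 9148 calls, 2260 to 4924 of them higher and 2251 to 4224 lower; the highest values are those without DMSO replicate 1. Against doxycycline the total was 9618 to 11553 under the alternatives that kept all libraries. Of 90 list counts, 38 stayed within 1.5 times in every setting. For the others the cause was not tested. Besides the counts given with the lists, the early zygotic embryo falls were 7 to 18, the immune effector falls 12 to 21, the molting falls 32 to 58 and rises 7 to 22, the C-type lectin rises 21 to 52 and falls 16 to 38, the pals rises 5 to 12, the cytochrome P450 falls 5 to 13, the metal and osmotic falls 2 to 6 the neuron falls 7 to 11 and the cytosolic ribosomal protein rises 0 to 7 over all alternatives. The neuropeptide falls were 2 to 7. The other counts that moved stayed at 5 genes or fewer. The low ends for the embryo, immune, molting, P450 and lectin falls and the pals rises come from the stricter filter, which tests fewer genes.

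The replicate numbers did not pair the samples: deviations of same-numbered teriflunomide and DMSO libraries correlated at −0.496, −0.265, −0.290 and −0.00108, and in no case was the best match the same number. With the replicate block 5043 genes were called, 2645 higher and 2398 lower.

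For dhod-1, CPM by total counts gave a difference of 0.009 (exact p = 0.943), against 0.084. Shares of teriflunomide calls made the same way by the batch 1 perturbations moved beyond counting error as follows, and the cause was not tested. Without a filter, rises were at 3.16% (brequinar), 26.9% (BAY2402234) and 26.4% (dhod-1 RNAi), and falls at 3.27%, 8.23% and 9.01%. With the stricter filter, rises were at 39.1% (BAY2402234) and 36.8% (dhod-1 RNAi), and falls at 5.71%, 16.18% and 19.6%. With DESeq2, falls were at 5.64%, 12.5% and 11.9%. With its size factors, rises were at 32.6% for BAY2402234, and falls at 11% for BAY2402234 and 11.2% for dhod-1 RNAi. With the replicate block, falls were at 15.6% and 11.6% for those. Leaving out each library gave ranges for rises of 3.03% to 5.57%, 23.0% to 35.2% and 24.1% to 32.9%, and for falls of 3.96% to 5.63%, 10.0% to 20.5% and 7.03% to 20.2%, in the order brequinar, BAY2402234 and dhod-1 RNAi.

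Genes under about 1 CPM in both groups rest on few counts at this depth.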
